A study of Mus musculus with 2 samples.

Results

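The 36 genes described here encode the machinery of mitosis and cytokinesis, and they were the rows of the count table whose symbol equalled a fixed list of names. All 36 were found among the 24532 genes of the table, and all 36 passed the minimum of 5 CPM (counts scaled by edgeR's TMM factors to a common library size), averaged over both libraries, which 9935 genes passed in all. The cells were cardiac myofibroblasts, the contractile form that fibroblasts take in a healing infarct, isolated from C57BL/6 hearts 3 days after myocardial infarction. They received 12.5 nM of an siRNA against Bcat1 (siBcat1) or of a control siRNA (siControl) and were kept for 72 hours in culture medium with serum. Both groups therefore share the strain, the infarct, the transfection reagent and the growth medium, and each group was 1 library. There was no replicate, no spread between replicates and no test, and a difference between the 2 libraries cannot be told apart from a difference between the 2 cultures. How many animals the cells came from is not given in the sources used here.

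Mitosis is driven by Cdk1 bound to cyclin B, which is switched on at the end of the G2 phase and switched off when the anaphase-promoting complex marks cyclin B for destruction. In between, chromosomes are compacted, attached by their kinetochores to spindle microtubules, checked for attachment by the spindle checkpoint and pulled apart, and the cell is then split by a contractile ring. Most of these genes are transcribed mainly in G2 and M, so their RNA in a bulk culture follows the share of cells in those phases as well as the amount of RNA in each cell. Fewer dividing cells and less RNA per dividing cell cannot be told apart in these data. Fibroblasts of the infarcted heart are known to divide in the first days after injury.

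The siBcat1 library held 104581819 counts and the siControl library 127309329, and after scaling 1 CPM stood for 101 counts in siBcat1 and 131 counts in siControl. Bcat1, the target of the siRNA, had 0.977 CPM in siBcat1 and 67.6 CPM in siControl, a log2 fold of -6.11 [-6.41 to -5.83]. Brackets give exact 95% intervals of counting error only; they hold no spread between cultures and take PCR-amplified reads as independent. All 9 fibroblast markers were detected in both libraries, with a summed level of 11765 CPM in siBcat1 and 26553 CPM in siControl. The collagen genes made up most of both sums. Col1a1 had 4345 CPM in siBcat1 and 11058 CPM in siControl, Col1a2 had 3919 and 9535 CPM, and Col3a1 had 2412 and 4638 CPM. Of the 9 markers, 8 had a log2 fold below 0, the smallest being that of Tcf21 (-0.094), and Thy1 was higher in siBcat1 (0.63). Of all measured genes, 53.2% were below 0. With the length trend described below removed, 6 of the 9 markers were below 0, and Pdgfra (0.38) and Ddr2 (0.25) had the opposite sign. The 5 myofibroblast markers were detected in both, with a sum of 5630 CPM in siBcat1 and 5660 CPM in siControl, but they went opposite ways. Tagln was higher in siBcat1, with 2129 CPM against 1528 CPM in siControl. Lower in siBcat1 were Acta2 (3139 against 3380 CPM), Postn (292 against 669 CPM), Cthrc1 (67.0 against 77.8 CPM) and Fap (2.01 against 5.97 CPM). The 10 macrophage markers summed to 29.0 CPM in siBcat1 and 10.5 CPM in siControl, of which Lyz2 made up 21.3 and 5.46 CPM. Ptprc, Adgre1, C1qa and Fcgr1 were at 0 in both libraries. The 6 endothelial markers summed to 19.2 CPM in siBcat1 and 14.8 CPM in siControl, the 5 mural markers to 5.22 and 8.77 CPM in the same order, and the 6 cardiomyocyte markers to 10.5 and 46.4 CPM, of which Tnnt2 made up 10.3 and 46.3 CPM, with Myh6 and Ryr2 at 0 in both. The 6 lymphocyte markers had 0 counts in siBcat1 and 2 counts in siControl. The part of these shifts in the results below was not tested.

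The mitosis and cytokinesis genes were, on balance, slightly lower in siBcat1, and the difference was uneven between them. Their summed level was 2374 CPM in siBcat1 and 2724 CPM in siControl, which is 87.2% of the siControl level. The log2 fold of siBcat1 over siControl was below 0 in 28 of 36 genes, where 53.2% of all measured genes were below 0. The median was -0.37, beside -0.06 for all 9935 genes. At a threshold of 2-fold, 3 genes were lower (Mki67, Bub1b and Foxm1) and 1 was higher (Birc5), where 13.0% of all genes were lower and 5.58% were higher. At 1.5-fold, 10 were lower and 2 higher, where 25.6% and 17.6% of all genes were. At 2-fold the share of the 36 genes was below that of all genes in both directions, and at 1.5-fold the share that was lower stood close to the 25.6% of all genes. The ranking of the genes among all measured genes spanned from the 5.03 percentile for Mki67 to the 96.6 percentile for Birc5.

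**Figure D1:**
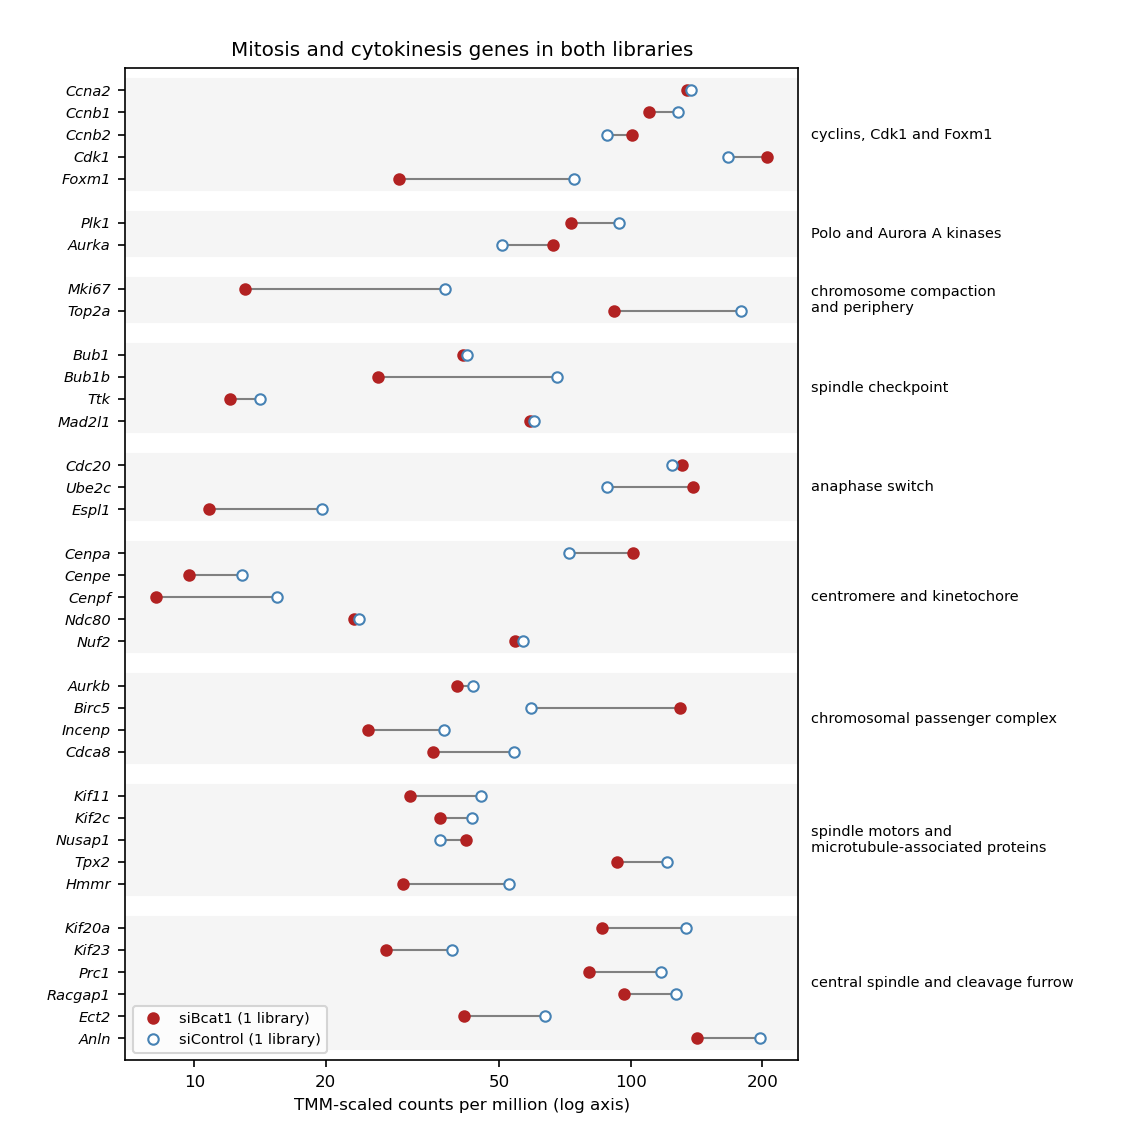
Level of each of the 36 genes in TMM-scaled CPM (log axis), with filled points for the siBcat1 library and open points for the siControl library, grouped by role. The filled point lies left of the open one in 28 genes, most widely for Mki67, Bub1b and Foxm1, and right of it most widely for Birc5.

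The folds in these libraries went with transcript length, since long transcripts were generally lower in siBcat1 and short ones higher. What caused this trend was not tested. Over the 9887 measured genes with a GENCODE transcript length, the Spearman correlation of length and log2 fold was -0.65, and among the 36 mitosis and cytokinesis genes it was -0.68, as a description of 2 libraries over genes that share them. The 12 shortest of the 36 genes, with transcripts of 918 to 2405 bases, had a median log2 fold of 0.021. The 12 of middle length, 2489 to 3668 bases, had -0.32, and the 12 longest, 3892 to 11130 bases, had -0.71. Each fold is therefore also given length-adjusted, that is, as its distance from the lowess trend of all genes on length. On that scale 27 of 36 genes lay below 0, where 49.8% of all genes did, and the median was -0.21. At 1.5-fold on that scale, 3 genes were lower and 2 higher, where 14.3% of all genes were lower and 12.8% higher. The medians of the 3 length groups on that scale were -0.21, -0.28 and -0.028, from short to long.

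**Figure D2:**
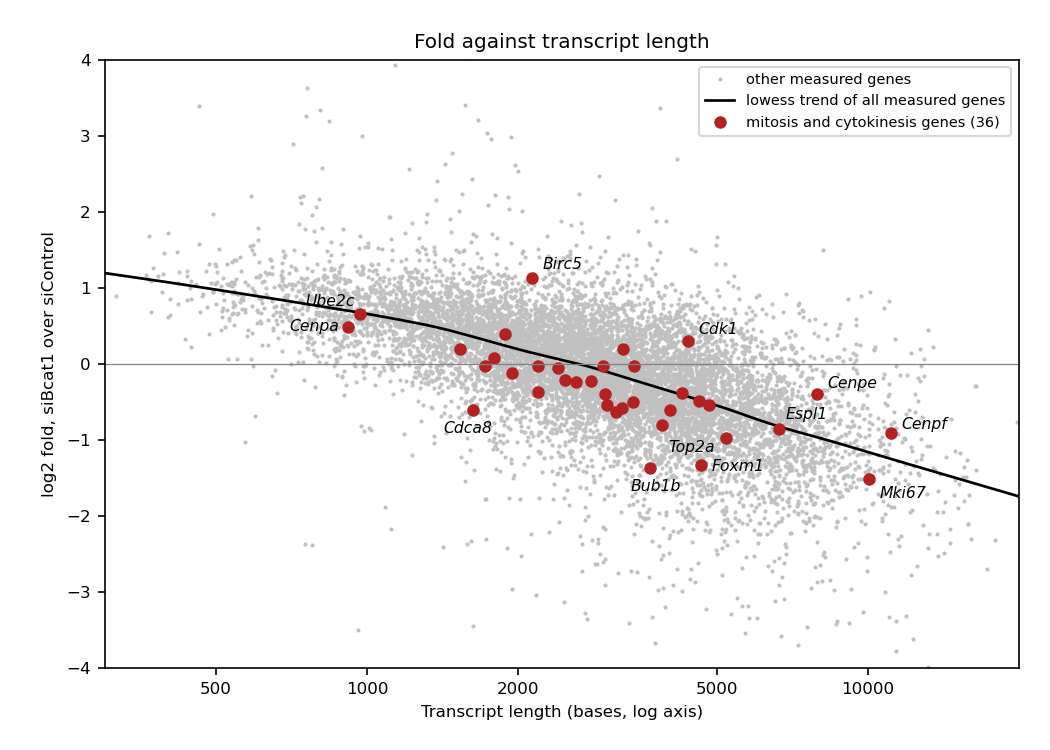
The log2 fold of siBcat1 over siControl against transcript length (log axis), with the 36 genes in red, the other measured genes in grey and their lowess trend as a line; 23 genes lie outside the axes. Espl1 lies on the line at the long end and Ube2c at the short end, whereas Bub1b, Foxm1 and Cdca8 lie below it and Birc5 and Cdk1 above it.

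A pair of promoter features was shared by most of these genes. Genes of mitosis are known to be held silent in resting cells by the DREAM complex and switched on by B-Myb and FOXM1 through a promoter element, the cell cycle homology region, which often sits close to the start and downstream of CCAAT boxes bound by NF-Y. The RefSeq promoter table (GRCm38.p6, 250 bases before to 50 after the start) held 30 of the 36 genes; Ccna2, Foxm1, Incenp, Aurkb, Tpx2 and Kif20a were not matched. The core of the homology region was searched for as TTTGAA on both strands, and a known variant of it as the palindrome TTTAAA. Other variants were not searched for. A core of either kind occurred in the promoters of 26 of these 30 genes. At least 1 promoter with such a core was held by 30.6% of all 27025 genes in the table and by 21.9% of its 7724 genes that were measured here. Counted within 50 bases of the start, it was 23 of 30 genes, against 9.54% of all genes. The box CCAAT, on either strand, occurred in 23 of 30 genes, against 41.1% of all genes, and 22 of 30 had both, against 12.2%. None of these words contains another of them, although neighbouring matches can share bases. A match is a description of letters and not evidence of binding.

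The promoters of the pair with the lowest and the pair with the highest log2 fold that were in the table, and of Ccnb2 with its regular row of boxes, are printed to show the promoters at both ends of the range of folds. Capitals mark the homology region cores and the CCAAT boxes on either strand, each sequence runs 5′ to 3′ on the gene's strand in GRCm38.p6, and the start is the base after the first 250.
Mki67 (chr7:135716330-135716629, minus strand): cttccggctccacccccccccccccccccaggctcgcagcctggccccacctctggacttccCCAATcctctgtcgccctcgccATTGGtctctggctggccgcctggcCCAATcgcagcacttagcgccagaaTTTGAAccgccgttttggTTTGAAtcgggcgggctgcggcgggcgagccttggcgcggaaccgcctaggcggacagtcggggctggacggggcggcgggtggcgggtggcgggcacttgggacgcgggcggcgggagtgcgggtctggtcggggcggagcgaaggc
Bub1b (chr2:118597961-118598260, plus strand): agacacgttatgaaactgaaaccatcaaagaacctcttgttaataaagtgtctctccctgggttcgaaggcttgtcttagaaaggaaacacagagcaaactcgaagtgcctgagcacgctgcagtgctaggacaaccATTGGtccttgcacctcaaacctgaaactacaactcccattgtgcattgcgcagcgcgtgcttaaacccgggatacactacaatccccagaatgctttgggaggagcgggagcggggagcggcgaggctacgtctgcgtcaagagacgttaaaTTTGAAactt
Ccnb2 (chr9:70421505-70421804, minus strand): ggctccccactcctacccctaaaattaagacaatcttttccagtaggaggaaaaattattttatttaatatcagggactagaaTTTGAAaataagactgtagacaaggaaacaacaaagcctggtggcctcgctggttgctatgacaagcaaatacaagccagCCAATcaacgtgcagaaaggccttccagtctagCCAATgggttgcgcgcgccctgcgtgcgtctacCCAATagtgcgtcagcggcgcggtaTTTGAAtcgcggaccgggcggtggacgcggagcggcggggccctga
Ube2c (chr2:164769679-164769978, plus strand): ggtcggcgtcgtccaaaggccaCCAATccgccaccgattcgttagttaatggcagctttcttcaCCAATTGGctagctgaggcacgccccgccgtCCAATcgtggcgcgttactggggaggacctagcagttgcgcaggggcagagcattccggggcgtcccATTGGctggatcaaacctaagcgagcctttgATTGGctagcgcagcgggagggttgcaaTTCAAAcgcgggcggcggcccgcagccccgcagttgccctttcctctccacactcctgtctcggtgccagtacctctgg
Birc5 (chr11:117848987-117849286, plus strand): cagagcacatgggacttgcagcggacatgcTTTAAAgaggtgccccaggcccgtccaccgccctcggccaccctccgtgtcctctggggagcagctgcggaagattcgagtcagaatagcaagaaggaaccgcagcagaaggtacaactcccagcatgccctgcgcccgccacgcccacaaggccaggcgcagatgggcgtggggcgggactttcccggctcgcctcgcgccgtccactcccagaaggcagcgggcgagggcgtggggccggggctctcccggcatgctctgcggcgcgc

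Mki67, at -1.52, had cores at positions -116 and -98 and boxes at -188, -166 and -141. Bub1b, at -1.37, had 1 box at -113 and a core at 41. Ccnb2, at 0.19, had a core at -167, then 3 boxes at -87, -54 and -21 and another core at 5. Ube2c, at 0.66, had 6 boxes and a core at -29. Birc5, at 1.13, had a TTTAAA at -220 and no box in this window. A core was thus present at both ends of the range of folds, and its distance from the start differed between the 5 genes.

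**Figure D3:**
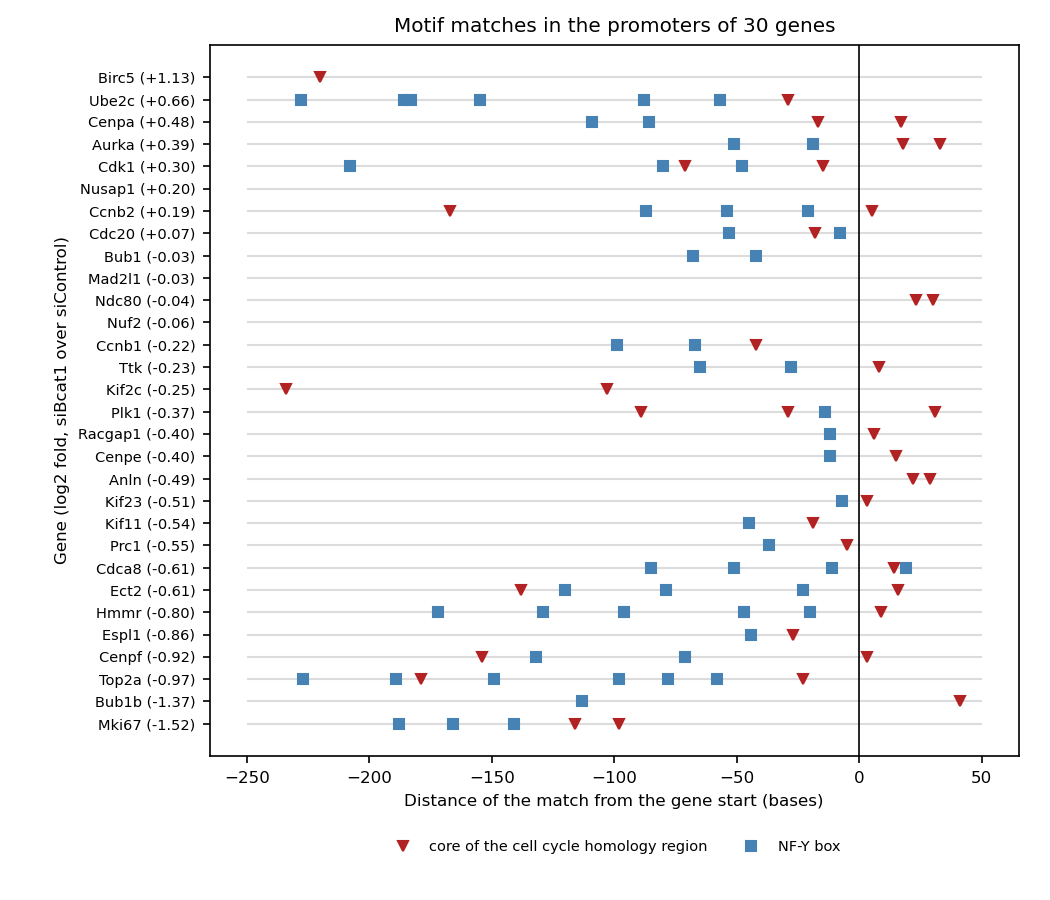
Position of each motif match relative to the gene start (bases) in the 30 genes, ordered by log2 fold with the highest on top, with triangles for the core of the homology region and squares for NF-Y boxes; for Ect2 and Prc1, which had 2 promoters, the one with the lower coordinate is drawn. Most of the 30 genes have a core within 50 bases of the start, but Birc5 at the top and Mki67 at the bottom have their matches farther upstream. Nusap1, Mad2l1 and Nuf2 have no match to either motif, as searched, in this window.

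Among the regulators that drive entry into mitosis, the transcription factor stood apart from the cyclins and the kinase. Foxm1, which activates many of the other genes in G2, had 29.5 CPM in siBcat1 and 74.1 CPM in siControl, a log2 fold of -1.33 [-1.39 to -1.27] and -0.84 length-adjusted (Entrez 14235, chromosome 6, 128362994 to 128375886, plus strand, GRCm38). Cdk1, the kinase of mitosis, had 206 CPM in siBcat1 and 167 CPM in siControl, with a log2 fold of 0.30 [0.28 to 0.33]. Cdk1 was thus among the 8 genes higher in siBcat1 in scaled counts, but it had -0.20 on the log2(TPM + 1) scale. Its length-adjusted value was 0.74 with the GENCODE length of 4375 bases and 0.38 with the implied length, the one at which its count and TPM match. The cyclins, which activate Cdk1, lay closer to equality than Foxm1. Ccna2 had 134 CPM in siBcat1 and 137 CPM in siControl (log2 fold -0.033), with 510 bases of its exons, 12.5% of them, shared with Exosc9 on the other strand. Exosc9 had 6362 counts in siBcat1 and 4466 in siControl. The Ccna2 value is uncertain for this reason, since any use of strand in counting is not given in the sources used here. Ccnb1 had 110 CPM in siBcat1 and 128 CPM in siControl (-0.22), and Ccnb2 had 101 and 88.0 CPM in the same order (0.19). Ccnb1 was also negative length-adjusted (-0.26) and with TPM (-0.72). Ccnb2 had the opposite sign length-adjusted (-0.21) and with TPM (-0.31), and Ccna2 had the opposite sign under upper-quartile factors (0.095). The ratio of Ccnb1 to Ccnb2 in TPM was 0.727 in siBcat1 and 0.967 in siControl. Both cyclin B genes have an annotated processed pseudogene that could draw reads.

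The other entry kinases went opposite ways in scaled counts. Plk1, the Polo kinase that acts in centrosome maturation and cytokinesis, had 73.0 CPM in siBcat1 and 94.2 CPM in siControl, a log2 fold of -0.37 [-0.41 to -0.33] and -0.49 length-adjusted. Aurka, the spindle pole kinase Aurora A, had 66.4 CPM in siBcat1 and 50.7 CPM in siControl, 0.39 [0.34 to 0.44] and 0.15 length-adjusted. On the log2(TPM + 1) scale Aurka had -0.11, where the median of all genes was -0.52. Tpx2 encodes the protein that activates Aurora A on spindle microtubules, and the ratio of Aurka to Tpx2 in TPM was 1.60 in siBcat1 and 0.931 in siControl.

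Both genes for mitotic chromosome structure were lower in siBcat1. Mki67, which encodes the antigen used to stain proliferating cells and coats mitotic chromosomes, had 13.1 CPM in siBcat1 and 37.5 CPM in siControl, a log2 fold of -1.52 [-1.61 to -1.43] (Entrez 17345, chromosome 7, 135689784 to 135716450, minus strand). It was the lowest of the 36 in scaled counts. Its transcript of 10061 bases is among the longest of the group, and the trend of all genes at that length was -1.17, so its length-adjusted value was -0.35. Top2a, the topoisomerase that untangles sister chromatids, had 91.3 CPM in siBcat1 and 179 CPM in siControl, -0.97 [-1.01 to -0.94] and -0.38 length-adjusted. The gap between Mki67 and Top2a in scaled counts was thus not seen once length was taken out.

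The spindle checkpoint genes were divided between 1 large difference and 3 small ones. Bub1b, which encodes BubR1, the checkpoint inhibitor of the anaphase-promoting complex, had 26.3 CPM in siBcat1 and 67.9 CPM in siControl, a log2 fold of -1.37 [-1.43 to -1.31] (Entrez 12236, chromosome 2, 118598202 to 118641592, plus strand). Its length-adjusted value of -1.09 was the lowest of the 36 genes and the only one past 2-fold on that scale. Bub1, the related kinase at the kinetochore, had 41.3 CPM in siBcat1 and 42.1 CPM in siControl (log2 fold -0.026; length-adjusted 0.19). Mad2l1, which encodes Mad2, had 58.6 and 59.9 CPM in the same order (-0.031; length-adjusted -0.34). Ttk, the kinase that recruits the other checkpoint proteins, had 12.1 and 14.1 CPM (-0.23; length-adjusted -0.18). Bub1 and Mad2l1 had the opposite sign under upper-quartile factors, with 0.10 and 0.097.

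Of the 3 genes of the anaphase switch, Ube2c and Espl1 lay on the length trend and Cdc20 lay below it. Ube2c, the ubiquitin-conjugating enzyme that works with the anaphase-promoting complex, had 139 CPM in siBcat1 and 88.3 CPM in siControl, a log2 fold of 0.66 [0.62 to 0.69]. Espl1, the protease separase that cuts cohesin, had 10.8 CPM in siBcat1 and 19.6 CPM in siControl, -0.86 [-0.96 to -0.76]. Their transcripts have 967 and 6658 bases, and length-adjusted they had -0.017 and -0.032. Cdc20, the activator of the complex, had 131 CPM in siBcat1 and 124 CPM in siControl (0.073), and its sign was the opposite with library totals (-0.019), with TPM (-0.43) and length-adjusted (-0.21). The 592 exon bases that Ube2c shares with Tnnc2 on the other strand hold few reads of that gene, since Tnnc2 had 0 counts in siBcat1 and 11 in siControl.

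The sign of 3 of the 5 kinetochore genes depended on the length correction. Cenpa, the histone H3 variant that marks centromeres, had 101 CPM in siBcat1 and 72.3 CPM in siControl, a log2 fold of 0.48 [0.44 to 0.52]. Cenpf, a large protein of the outer kinetochore, had 8.16 CPM in siBcat1 and 15.4 CPM in siControl, -0.92 [-1.04 to -0.80]. Cenpe, the kinesin that carries chromosomes to the spindle equator, had 9.72 CPM in siBcat1 and 12.8 CPM in siControl, -0.40 [-0.52 to -0.29]. Length-adjusted, all 3 had the opposite sign, with -0.22 for Cenpa (0.043 with the implied length), 0.34 for Cenpf and 0.57 for Cenpe. Ndc80 and Nuf2 form a dimer that grips the microtubule end, and they differed least. Ndc80 had 23.2 CPM in siBcat1 and 23.8 CPM in siControl, and Nuf2 had 54.2 and 56.5 CPM in the same order. The ratio of Ndc80 to Nuf2 in TPM was 0.468 in siBcat1 and 0.460 in siControl. Both had the opposite sign under upper-quartile factors, with 0.092 and 0.066.

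The chromosomal passenger complex held the gene with the highest fold together with 3 partners that were not higher in scaled counts. Birc5, which encodes survivin, the subunit that docks the complex on centromeres, had 130 CPM in siBcat1 and 59.2 CPM in siControl, a log2 fold of 1.13 [1.09 to 1.17] (Entrez 11799, chromosome 11, 117849237 to 117855743, plus strand). It was the only one of the 36 genes with a positive value in every one of 12 settings of scaling, filter and length correction. Incenp, the scaffold, had 24.9 CPM in siBcat1 and 37.3 CPM in siControl, -0.58 [-0.65 to -0.51]. Cdca8, which encodes borealin, had 35.3 CPM in siBcat1 and 53.9 CPM in siControl, -0.61 [-0.67 to -0.55] and -0.97 length-adjusted. Aurkb, the kinase of the complex, had 40.0 CPM in siBcat1 and 43.6 CPM in siControl (-0.12; 0.0042 under upper-quartile factors; -0.34 length-adjusted). In TPM, the ratio of Birc5 to Incenp was 17.2 in siBcat1 and 4.94 in siControl, to Cdca8 6.14 and 1.73, and to Aurkb 6.54 and 2.58. Birc5 has 2 listed transcripts, matched to GENCODE transcripts of 947 and 3334 bases, and its length-adjusted value depends on which is used. It was 0.99 with their median and 0.49 with the implied length. The log2 fold of Birc5 in TPM, without a pseudocount, minus that in unscaled counts was -0.044. In genes with 1 transcript accession the median of this difference was -0.13, so Birc5 exceeded it by 0.086. Over all genes with several accessions this excess lay between -0.050 (percentile 5) and 0.063 (percentile 95). The mean length of Birc5 transcripts that the deposited TPM implies was therefore shorter in siBcat1 than in siControl, and which transcript differed was not tested.

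Spindle motors and microtubule-associated proteins were mostly lower in scaled counts. Hmmr, which encodes a spindle assembly factor, had 30.1 CPM in siBcat1 and 52.4 CPM in siControl, a log2 fold of -0.80 [-0.86 to -0.74] and -0.47 length-adjusted. Kif11, the kinesin that pushes spindle poles apart, had 31.1 CPM in siBcat1 and 45.3 CPM in siControl (-0.54; length-adjusted -0.025). Tpx2 had 93.0 CPM in siBcat1 and 121 CPM in siControl (-0.38; length-adjusted 0.031). For Kif11 and Tpx2 the difference was that of other genes of their length. With the trend on GC content removed as well, Kif11 had -0.27 and Tpx2 -0.027. Kif2c, a kinesin that dismantles microtubules at centromeres, had 36.5 CPM in siBcat1 and 43.3 CPM in siControl (-0.25; length-adjusted -0.25). Nusap1, which bundles spindle microtubules near chromosomes, had 41.9 CPM in siBcat1 and 36.5 CPM in siControl (0.20; length-adjusted 0.37), with the opposite sign with TPM (-0.30).

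The genes of the central spindle and cleavage furrow had the smallest range of folds among the 9 groups by role in scaled counts, but not length-adjusted. All 6 were lower in siBcat1 in scaled counts (Anln had 0.13 with the implied length), within -0.64 to -0.40, with a median of -0.53, and 2 of the 6 passed 1.5-fold, where 25.6% of all genes were lower by that much. Length-adjusted they spanned -0.50 to -0.0092, with a median of -0.30. On that scale the range was smaller for the chromosome structure genes (-0.38 to -0.35) and the anaphase switch genes (-0.21 to -0.017). Prc1, which crosslinks the midzone microtubules, had 80.0 CPM in siBcat1 and 117 CPM in siControl (-0.55 [-0.59 to -0.51]). Kif23 and Racgap1 encode the 2 subunits of centralspindlin, the complex that recruits Ect2. Kif23 had 27.4 CPM in siBcat1 and 39.0 CPM in siControl (-0.51), and Racgap1 had 96.7 and 127 CPM in the same order (-0.40). Their ratio in TPM was 0.246 in siBcat1 and 0.265 in siControl, and length-adjusted both had -0.30. Ect2, the exchange factor that switches on RhoA at the cell equator, had 41.5 CPM in siBcat1 and 63.5 CPM in siControl (-0.61; length-adjusted -0.25). Anln, which encodes the furrow scaffold anillin, had 141 CPM in siBcat1 and 198 CPM in siControl (-0.49; length-adjusted -0.0092; 0.13 with the implied length). Kif20a, the kinesin that brings the passenger complex to the midzone, had 85.7 CPM in siBcat1 and 134 CPM in siControl (-0.64 [-0.68 to -0.60]; length-adjusted -0.50). The Kif20a value is uncertain because 1271 of its exon bases, 29.3% of them, overlap Cdc23 on the other strand, and whether strand was used in counting is not given in the sources used here. Cdc23, a subunit of the anaphase-promoting complex, had 36.7 CPM in siBcat1 and 82.7 CPM in siControl.

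**Figure D4:**
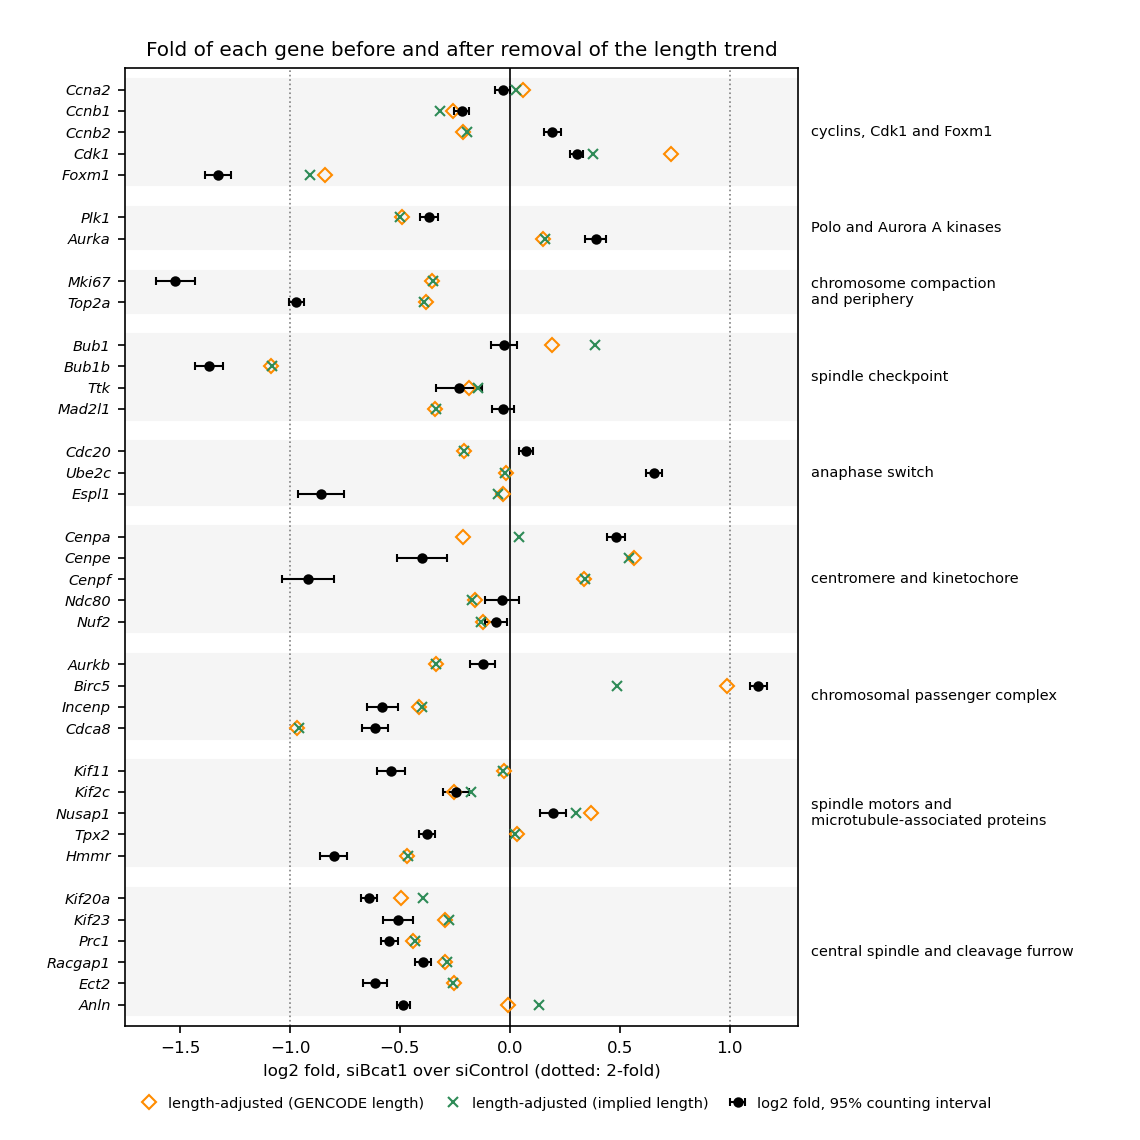
Log2 fold of siBcat1 over siControl for the 36 genes by role, as measured (black, with 95% counting intervals) and as the distance from the length trend, with GENCODE lengths (diamonds) or the implied length (crosses). The 6 genes of the central spindle and cleavage furrow lie close together as measured. On the adjusted scale with GENCODE lengths, Bub1b is the lowest and Birc5 the highest. The 2 lengths give values that differ by more than 0.2 for Cdk1, Cenpa and Birc5.

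Across scalings, filters and length corrections, 17 of the 36 genes had a negative fold in every setting, 1 had a positive fold in every setting and 18 had either sign. A filter on CPM keeps or drops a gene and cannot change its sign. The median of the 36 genes lay below that of all genes in each of 15 settings, but these are not independent comparisons. A change of scaling factors or of the fold threshold cannot move the difference between these medians. The difference between these medians was -0.31 in scaled counts, whatever the scaling factors, since they shift all genes alike. It was -0.27 on the log2(TPM + 1) scale, -0.22 length-adjusted, -0.19 with the implied length and -0.26 with length and GC trends removed.

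Per length, the order of the genes was much the same in both libraries, with a Spearman correlation of 0.95 between their TPM values over the 36 genes. In siBcat1 the highest TPM values were those of Ube2c (218), Birc5 (195), Cdc20 (107), Cdk1 (105) and Cenpa (103). In siControl they were those of Ube2c (197), Cdc20 (145), Cdk1 (121), Birc5 (119) and Ccnb2 (118). The lowest were Cenpf, with 1.07 TPM in siBcat1 and 2.88 TPM in siControl, Cenpe, with 1.82 and 3.41 TPM in the same order, and Mki67, with 1.89 and 7.72 TPM. Birc5 thus stood near Ube2c in siBcat1 and near Cdk1 and Ccnb2 in siControl.

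Other genes of cell division, from lists that the 36 genes are no part of, did not all share the group's shift. Of 53 measured other mitotic genes, 3 were at least 2-fold lower and 4 at least 2-fold higher, with a median of -0.094 (length-adjusted -0.079), close to the -0.06 of all genes. For this list and those that follow, the shares of all genes were 13.0% at least 2-fold lower, 5.58% at least 2-fold higher and 53.2% below 0. Casc5, a kinetochore scaffold, had -2.12, the kinesin Kif14 -1.51 and Iqgap3 -1.34, while Cenpl, a centromere protein, had 1.15. Length-adjusted, these had -1.31, -0.44, -0.65 and 0.92. All 8 condensin subunits, which compact chromosomes, were below 0, with a median of -0.62 and 1 at least 2-fold lower; length-adjusted, the median was -0.29 and 6 of 8 were below 0. Ncapd3 had -1.72, Ncapg2 -0.76, Smc4 -0.74 and Ncapg -0.64, and length-adjusted these had -1.08, -0.27, -0.32 and -0.35. Cohesin holds sister chromatids together. All 10 genes of cohesin, its loaders and its regulators Wapl, Pds5a and Pds5b were below 0, with a median of -0.60. Of these, 2 were at least 2-fold lower, Pds5a with -1.73 and Nipbl with -1.29. Mau2 had -0.97 and Stag1 -0.81. These are long transcripts (median 5060 bases), and on the length-adjusted scale the median of the group was 0.065. Pds5a was still at least 2-fold lower on that scale, with -1.34, while Nipbl had -0.18, Mau2 -0.59 and Stag1 -0.049.

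The genes of the anaphase-promoting complex, its coactivator Fzr1 included, went both ways. Of 15, 2 were at least 2-fold lower and 1 at least 2-fold higher, with a median of 0.076 (length-adjusted 0.015). Anapc1, the longest transcript of this list, had -1.38, Cdc23 -1.17, the short Anapc13 1.00 and Cdc26 0.66. Length-adjusted, these had -0.31, -0.79, 0.10 and -0.087. Of 12 genes of the DREAM and MuvB complexes, which repress and activate the homology region, none was past 2-fold and the median was -0.054. Lin37 had 0.99, Mybl2, which encodes B-Myb, had -0.90, Rbl1 had -0.78 and E2f5 had 0.66 (length-adjusted 0.41, -0.62, -0.26 and 0.37). DNA replication genes, which act in S phase, had a median of -0.020 over 40 measured genes and 0.0072 length-adjusted, with 2 at least 2-fold lower and none higher. Pole, a DNA polymerase subunit, had -1.67, Uhrf1 -1.22, the helicase subunit Mcm2 -0.98 and Gins1 0.85 (length-adjusted -0.78, -0.99, -0.77 and 0.23). No test of the difference between these groups was possible with 1 library each, so nothing here is shown to be particular to the mitosis and cytokinesis genes.

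**Figure D5:**
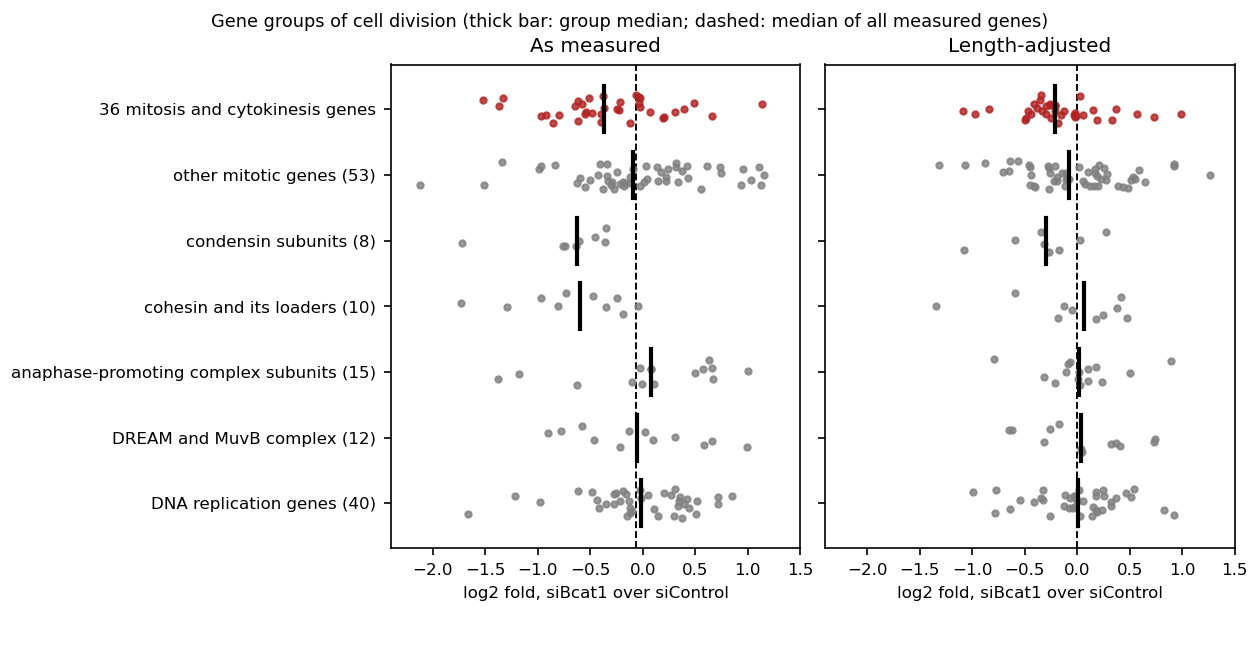
Log2 fold of siBcat1 over siControl for measured genes of 7 groups of cell division, as measured (left) and length-adjusted (right), with 1 point a gene, a thick bar at each group's median and a dashed line at the median of all measured genes. The condensin and cohesin medians lie left of the dashed line as measured, at -0.62 and -0.60; after adjustment the cohesin median is 0.065, the condensin median -0.29 and that of the 36 mitosis and cytokinesis genes -0.21.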

How the data were processed

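Counts per gene were taken as deposited by the authors, unnormalized per the file headers, and TPM values were likewise deposited by the authors. The submitters' processing notes name FastQC, Trimmomatic, HISAT2, StringTie and the mm10 build; versions, settings and any use of strand in counting are not given in these sources. Counts were scaled by TMM factors (0.969 in siBcat1, 1.03 in siControl) with edgeR 4.0.16 in R 4.3.3. The log2 fold is siBcat1 over siControl with an exact (Clopper-Pearson) 95% interval of counting error. With 1 library per group no test was made. The minimum was an average of 5 CPM over both libraries, and a kept gene at 0 in a library was set to a floor of 3 counts. Transcript lengths came from GENCODE M21 (GRCm38, the mm10 build), as the median over transcripts matched by RefSeq accession, and the trend was lowess (fraction 0.3, 3 iterations, statsmodels 0.14.6). The trend took up 37.4% of the spread (variance) in log2 fold. Calculations were tested on simulated data. Named genes were all 36 genes, Bcat1, single cell type markers and up to 4 genes with the largest absolute log2 fold in each other list. The genes, the lists and the length correction were chosen with earlier results of these data known. Other work used scipy 1.17.1, matplotlib 3.10.9, pandas 2.3.3 and numpy 2.4.6 in Python 3.11.15; gene positions and promoter sequences are from RefSeq (GRCm38.p6).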

Additional observations from a re-analysis of the deposited data

How the results depend on the processing

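No paired analysis was possible because each group has 1 library. The 3 genes lower and 1 gene higher by 2-fold, among 1292 and 554 of all genes, were counted again under each alternative, as were both medians. Counts of the 36 genes with DESeq2 1.42.0 size factors, upper-quartile factors, a minimum of 1 or 20 CPM, no minimum (prior count 0.5) or whole intervals past 2-fold were the same. At 1.5-fold, 10 were lower and 2 higher (2544 and 1750 of all genes), and at 3-fold 0 were lower and 0 higher (452 and 94). Library totals gave 5 lower genes (1494 of all genes), with medians of -0.46 for the 36 genes and -0.15 for all genes. Upper-quartile factors gave medians of -0.25 and 0.067. TPM with a pseudocount of 1 gave 11 lower and 0 higher genes (2396 and 97 of all genes) and medians of -0.79 and -0.52. With a pseudocount of 0.1 these were 14 and 0 (2857 and 107) and -0.87 and -0.56. Removal of the length trend left 1 lower and 0 higher (533 and 403 of 9887 genes), with medians of -0.21 and 0.0023. With the implied length these were 1 and 0 (531 and 384 of 9933 genes) and -0.19 and 0.0017. With length and GC trends removed, 1 was lower and 1 higher (511 and 340 of 9887 genes), and the median of the 36 genes was -0.26. A minimum of 20 CPM kept 32 of the 36 genes and 6644 genes in all, of which 752 were lower and 352 higher. With no minimum, 3086 were lower and 2084 higher of 16044 genes.

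Single genes changed sign in 43 of 392 comparisons with an alternative. These include the minimum of 1 or 20 CPM, which leaves a gene's fold as it was, so no sign could change there. Under upper-quartile factors the values were 0.095 for Ccna2, 0.0042 for Aurkb, 0.10 for Bub1, 0.092 for Ndc80, 0.066 for Nuf2 and 0.097 for Mad2l1, and with library totals -0.019 for Cdc20. With TPM and a pseudocount of 1 they were -0.31 for Ccnb2, -0.20 for Cdk1, -0.43 for Cdc20, -0.11 for Aurka, -0.025 for Cenpa and -0.30 for Nusap1, and with a pseudocount of 0.1 -0.31, -0.20, -0.43, -0.11, -0.025 and -0.31 in that order. With the length trend removed they were 0.059 for Ccna2, -0.21 for Ccnb2, -0.21 for Cdc20, 0.19 for Bub1, -0.017 for Ube2c, -0.22 for Cenpa, 0.57 for Cenpe, 0.34 for Cenpf and 0.031 for Tpx2. With the implied length they were 0.027 for Ccna2, -0.20 for Ccnb2, -0.21 for Cdc20, 0.39 for Bub1, -0.022 for Ube2c, 0.54 for Cenpe, 0.34 for Cenpf, 0.022 for Tpx2 and 0.13 for Anln. With length and GC trends removed they were -0.19 for Ccnb2, -0.070 for Cdc20, -0.12 for Cenpa, 0.36 for Cenpe, 0.14 for Cenpf and 0.11 for Espl1. For each reversed or moved value the cause was not tested beyond the change of setting itself. Depth limits little here, since the lowest of the 36 genes had 827 counts in siBcat1; the absence of replicates limits every comparison.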
